A study of Mus musculus with 27 samples.

Results

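The genes described here are 10 members of the p53 pathway and the senescence programme: Trp53, Mdm2, Atm, Cdkn1a, Cdkn2a, Ccng1, Eda2r, Phlda3, Bax and Trp53inp1. They were taken from the count matrices by symbol, and all 10 of 10 were found among the 31053 genes measured in nuclei of the mouse hippocampus. Each library came from 1 mouse, and the 27 mice carried the P301S transgene or not (P301S, human tau with a dementia-linked mutation under the mouse Prnp promoter) together with Cgas+/+, Cgas+/- or Cgas-/-, where Cgas encodes the cytosolic DNA sensor cGAS. There were 5 libraries labelled Cgas+/+ (3 male and 2 female), 2 labelled Cgas+/- and 2 labelled Cgas-/- (all male), and 6 each labelled P301S Cgas+/+, P301S Cgas+/- and P301S Cgas-/- (3 male and 3 female in each). The labels give no age and no treatment. The 9 libraries without the transgene are called tau-free below.

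p53, the product of Trp53, is a transcription factor that is kept at a low protein level by the ubiquitin ligase Mdm2 and is stabilised when kinases such as Atm sense broken DNA. It then switches on genes that halt the cell cycle, among them Cdkn1a (p21) and Ccng1 (cyclin G1), and genes that act in cell death or survival signalling, among them Bax, Eda2r, Phlda3 and Trp53inp1, while also switching on Mdm2, which closes a feedback loop. Cdkn2a encodes p16INK4a and ARF, and its RNA together with that of Cdkn1a is widely used to mark senescent cells. Most p53 activity is set by protein level and modification, which RNA counts do not show.

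The promoters of 3 members are shown because Cdkn1a is the member whose RNA differed most between genotypes in oligodendrocyte-like nuclei, and because Mdm2 and Ccng1 rank near it across mice. The windows are those of RefSeq on GRCm38.p6, running from 250 bases before to 50 bases after the transcription start on the gene's own strand, and capitals mark matches to the p53 half-site, a motif of 10 letters that reads alike on both strands. They lie at chr17:29090729-29091028 on the plus strand for Cdkn1a, at chr10:117710709-117711008 on the minus strand for Mdm2, and at chr11:40755237-40755536 on the minus strand for Ccng1.
Cdkn1a: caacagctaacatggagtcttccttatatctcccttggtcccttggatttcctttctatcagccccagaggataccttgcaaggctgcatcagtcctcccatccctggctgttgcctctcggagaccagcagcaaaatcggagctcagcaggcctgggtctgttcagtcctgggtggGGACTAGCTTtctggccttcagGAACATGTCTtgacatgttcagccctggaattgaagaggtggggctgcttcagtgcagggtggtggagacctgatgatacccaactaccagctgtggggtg
Mdm2: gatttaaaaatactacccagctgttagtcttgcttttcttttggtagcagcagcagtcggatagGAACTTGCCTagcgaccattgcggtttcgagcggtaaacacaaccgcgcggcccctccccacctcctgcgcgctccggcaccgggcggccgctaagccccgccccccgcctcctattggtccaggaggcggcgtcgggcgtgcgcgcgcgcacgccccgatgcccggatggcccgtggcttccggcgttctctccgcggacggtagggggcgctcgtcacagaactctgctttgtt
Ccng1: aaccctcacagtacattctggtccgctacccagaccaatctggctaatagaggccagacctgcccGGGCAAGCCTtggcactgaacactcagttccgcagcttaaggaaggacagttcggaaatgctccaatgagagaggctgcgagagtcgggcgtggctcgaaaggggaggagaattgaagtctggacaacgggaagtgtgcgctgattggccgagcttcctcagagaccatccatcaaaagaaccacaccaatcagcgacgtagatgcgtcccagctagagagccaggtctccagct

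The Cdkn1a window held 2 half-sites, which began 73 and 51 bases upstream of the start, and the Mdm2 and Ccng1 windows held 1 each, which began 186 and 185 bases upstream. Among all 32851 windows of this length, 8.36% held at least 1 half-site and 24 (0.0731%) held 2 separated by at most 13 bases, as in Cdkn1a. Of the 9 members with a window, Trp53, Mdm2, Cdkn1a, Ccng1 and Bax had at least 1 match, and the windows of Eda2r, Phlda3, Atm and Cdkn2a had none. Cdkn1a and Cdkn2a each had a further window at another start, without a match. A match is a description of the letters only.

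Across the series the libraries held between 46091490 and 79484316 UMIs (unique molecular identifiers, each standing for 1 captured RNA molecule), and 204852 nuclei were kept after filtering, between 5840 and 12572 per library. Nuclei were grouped into classes named from marker genes, each class called "like" a cell type, and every level below is in CPM, the UMIs of a gene per 1000000 UMIs of that class in that library. Counts of UMIs are not divided by gene length, so a gene is compared with itself across classes and groups and never with another gene. Sex-linked genes matched the labelled sex in all 27 libraries. Cgas RNA in microglia-like nuclei did not follow the labels: its mean was 35.2 CPM in libraries labelled Cgas+/+ and 27.3 in those labelled Cgas-/-, and 37.7 and 51.4 in those labelled P301S Cgas+/+ and P301S Cgas-/-, so the Cgas genotypes below are those on the labels. Barcodes were shared by at most 0.57% of the smaller library of any pair. The version of the software written in the file headers was 3.0.2 for 12 libraries, all male, and 3.1.0 for the other 15. Of the P301S libraries, 6 had version 3.0.2 and 12 had 3.1.0. The only tau-free libraries of version 3.1.0 were Cgas+/+ replicates 3, 4 and 5, so the version partly goes with the transgene. The library P301S Cgas+/+ replicate 3 stood apart, with 4426 of its 8724 kept nuclei in unnamed clusters, 362 astrocyte-like nuclei and a median of 2025.5 UMIs per nucleus, where the next lowest library had 3222.5. Without it the log2 fold changes in astrocyte-like nuclei given below were 3.21 for Cdkn1a, 3.58 for Eda2r and 0.43 for Trp53 (adjusted p of 0.00866, 0.00861 and 0.0380 in edgeR).

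The 10 genes had different homes among the 6 largest classes. Trp53 was highest in microglia-like nuclei (53.1 CPM ± 11.3, SD, n = 27), followed by oligodendrocyte-like (45.5 ± 8.32) and astrocyte-like (39.3 ± 11.95) nuclei, and it was lowest in inhibitory (11.9 ± 2.56) and excitatory (10.3 ± 1.56) neuron-like nuclei. Astrocyte-like nuclei were above oligodendrocyte precursor-like (OPC-like) nuclei in 27 of 27 libraries, while the first and second classes kept their order in 19 of 27. Mdm2 was highest in oligodendrocyte-like nuclei (105 ± 20.2), above microglia-like nuclei (71.2 ± 13.7) in 24 of 27 libraries, and its levels in astrocyte-like (54.4 ± 9.51) and OPC-like (52.5 ± 8.81) nuclei were not separated, with the former higher in 14 of 27. Atm ran from 65.2 ± 10.995 in microglia-like to 37.1 ± 5.68 in inhibitory neuron-like nuclei.

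Among the 6 largest classes Phlda3 and Eda2r were concentrated in oligodendrocyte-like nuclei, and so was Cdkn1a in P301S libraries. Among the small classes, Eda2r had higher means in ependymal-like (18.3 CPM, 37 UMIs) and Cajal-Retzius-like nuclei (13.3 CPM, 24 UMIs). The oligodendrocyte-like class is described next. These nuclei were 22.4% of all kept nuclei and held 66.8% of the Phlda3, 61.0% of the Eda2r and 45.1% of the Cdkn1a UMIs. Of the 1573 Cdkn1a UMIs there, 1544 came from P301S libraries. In tau-free libraries Cdkn1a was instead at 3.31 ± 2.89 CPM (SD, n = 9; 15 UMIs) in microglia-like and 1.48 ± 1.79 (29 UMIs) in oligodendrocyte-like nuclei, with a further 185 UMIs at 0.703 CPM in excitatory neuron-like nuclei. Phlda3, a pleckstrin-homology protein that opposes Akt signalling, stood at 15.8 ± 7.60 CPM there and at 2.15 ± 1.86 in astrocyte-like nuclei, with the same order in 27 of 27 libraries. Eda2r, a receptor of the tumour necrosis factor receptor family that binds ectodysplasin A2, was at 12.98 ± 5.48 in oligodendrocyte-like, 6.29 ± 4.14 in OPC-like and 2.95 ± 3.59 in astrocyte-like nuclei, and at 0.223 ± 0.103 in excitatory neuron-like nuclei. Trp53inp1, a stress-induced partner of p53, was instead highest among the 6 largest classes in astrocyte-like nuclei (36.1 ± 7.21), above oligodendrocyte-like nuclei (20.9 ± 5.01) in 27 of 27 libraries. Bax, which permeabilises mitochondria in apoptosis, ranged down from 22.4 ± 6.60 in microglia-like nuclei to 9.13 ± 2.59 in excitatory neuron-like ones. Ccng1 ranged from 10.4 ± 3.87 in oligodendrocyte-like to 4.65 ± 1.47 in inhibitory neuron-like nuclei, and its first and second classes kept their order in 17 of 27 libraries.

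**Figure D1:**
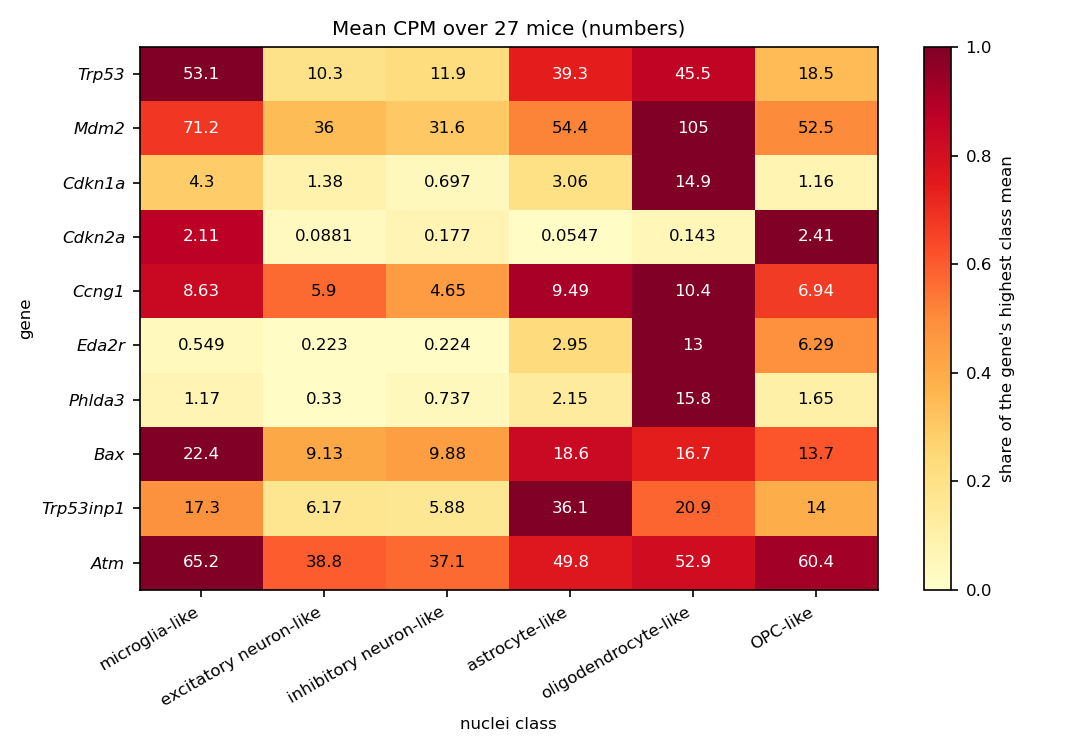
Mean CPM of each gene (rows) in the 6 largest nuclei classes (columns) over the 27 mice. The printed numbers are the means and the colour gives the share of the gene's own highest class, so colours compare classes within a row; Cdkn1a, Eda2r and Phlda3 peak in oligodendrocyte-like nuclei, at 14.9, 12.98 and 15.8 CPM, though for Cdkn1a this mean is carried by the 18 P301S mice (21.6 CPM) and the 9 tau-free mice had 1.48 CPM there and 3.31 in microglia-like nuclei.

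Cdkn2a was nearly undetected. Only 232 of its UMIs were counted in all kept nuclei, of which 59 lay in OPC-like, 59 in excitatory neuron-like and 48 in microglia-like nuclei. Its level was 2.41 ± 2.05 CPM in OPC-like and 2.11 ± 2.44 in microglia-like nuclei, and these neighbours kept their order in 17 of 27 libraries. In OPC-like nuclei it was between 0 and 8.06 CPM in P301S libraries and between 0 and 3.08 in tau-free libraries. In microglia-like nuclei the means were 3.79 CPM in Cgas+/+, 0 in Cgas+/- and Cgas-/-, and 3.53, 1.57 and 1.23 in P301S Cgas+/+, P301S Cgas+/- and P301S Cgas-/- libraries, from 8, 0, 0, 23, 9 and 8 UMIs. Cdkn2a passed the low-count filter in no class. In the 24 fits without that filter the lowest unadjusted p was 0.0639 and the lowest adjusted p 0.653 in edgeR, so no difference between genotypes was detected at this depth.

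Outside the 6 large classes, endothelial-like nuclei had a Cdkn1a level of 34.6 ± 23.8 CPM (SD, n = 18) in P301S and 13.4 ± 12.7 (n = 9) in tau-free libraries. These values rest on 51 and 10 UMIs in 671 and 413 nuclei, and 3 libraries of each kind were at 0, so the values are given without a test. Ependymal-like nuclei went the other way, with Cdkn1a at 2.51 ± 4.07 CPM (6 UMIs) in P301S and 9.04 ± 12.1 (9 UMIs) in tau-free libraries and Eda2r at 12.6 ± 15.2 (18 UMIs) and 27.7 ± 30.9 (19 UMIs). The largest unnamed cluster held 6668 nuclei, 93.6% of them from P301S libraries and 64.4% from P301S Cgas+/+ replicate 3 alone. Its pooled levels were 29.3 CPM for Cdkn1a, 154 for Mdm2, 11.9 for Phlda3 and 7.90 for Eda2r.

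The first question was whether the transgene goes with higher or lower RNA of these genes, asked over all 18 P301S against all 9 tau-free libraries with Cgas label and sex in the model. The clearest differences were in glia. Cdkn1a, which encodes the cyclin-dependent kinase inhibitor p21, was at most 5.24 CPM in oligodendrocyte-like nuclei of every tau-free library and above that in 14 of 18 P301S libraries. Eda2r and Cdkn1a rose in astrocyte-like nuclei, where both are near 0 without the transgene, and Trp53 rose there by a smaller amount. In neurons and in microglia-like nuclei no member that was tested passed the adjusted threshold.

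In oligodendrocyte-like nuclei Cdkn1a was at 0.941, 2.66, 0, 5.24 and 0 CPM in the 5 Cgas+/+ libraries, at 2.97 and 0.932 in the Cgas+/- libraries and at 0 and 0.571 in the Cgas-/- libraries. In the P301S groups the lowest, median and highest values were 2.88, 13.1 and 60.7 CPM for P301S Cgas+/+, 2.89, 33.2 and 39.6 for P301S Cgas+/-, and 8.08, 15.3 and 33.3 for P301S Cgas-/-. The ranges of P301S and tau-free libraries met only at the low end, and the spread within each P301S group was wide. The means were 21.6 ± 16.05 (SD, n = 18; 1544 UMIs) against 1.48 ± 1.79 CPM (n = 9; 29 UMIs). The log2 fold change was 4.04 ± 0.73 (SE), or 16.4-fold, with an adjusted p of 0.0517 in edgeR's quasi-likelihood test over the 12992 genes tested, which just misses the 0.05 threshold. In sums over a class, more nuclei with an RNA and more RNA per nucleus cannot be told apart. DESeq2 on the same counts gave 4.05 with an adjusted p of 4.3e-07.

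Another 6 members were higher in oligodendrocyte-like nuclei of P301S libraries at an unadjusted p under 0.05, and none of them passed the adjusted threshold in edgeR. Eda2r was at 7.53, 8.79, 9.45, 7.87 and 10.1 CPM in Cgas+/+, at 12.5 and 5.59 in Cgas+/-, and at 7.04 and 2.28 in Cgas-/- libraries. Its lowest, median and highest values were 9.68, 16.5 and 20.3 in P301S Cgas+/+, 7.69, 14.9 and 22.9 in P301S Cgas+/-, and 12.6, 14.98 and 20.6 in P301S Cgas-/- libraries. Of the 18 P301S libraries, 14 lay above every tau-free library, and the log2 fold change was 1.08 ± 0.23 (adjusted p = 0.0806). Mdm2, the p53 antagonist and target, was between 66.9 and 102 CPM in tau-free and between 80.4 and 147 in P301S libraries, 10 of which were above all tau-free ones, with a log2 fold change of 0.34 ± 0.09 (adjusted p = 0.0856). DESeq2 called both, with adjusted p of 0.0025 for Eda2r and 0.0319 for Mdm2.

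The remaining differences in oligodendrocyte-like nuclei were smaller and the ranges overlapped more. Trp53 was at 40.2 ± 7.43 CPM in tau-free and 48.2 ± 7.57 in P301S libraries (log2 fold change 0.32 ± 0.10, adjusted p = 0.148). Phlda3 was at 11.5 ± 3.48 and 17.99 ± 8.23 CPM (0.67 ± 0.28, adjusted p = 0.276), and Ccng1 at 7.98 ± 1.83 and 11.6 ± 4.10 CPM (0.60 ± 0.21, adjusted p = 0.192). Trp53inp1 was at 17.5 ± 3.91 and 22.6 ± 4.67 CPM (0.37 ± 0.13, adjusted p = 0.209). Bax was at 14.9 ± 3.60 and 17.6 ± 5.20 CPM and Atm at 53.9 ± 6.14 and 52.4 ± 4.995, and neither reached an unadjusted p of 0.05. Of 9 members tested, edgeR called 0, beside a background of 2 of 12992 genes (0.0154%), of which 1 was higher (0.00770%). Of the 9, 7 had an unadjusted p under 0.05, all higher, beside 1784 of all genes. DESeq2 called 3 of the 9, beside 126 genes higher and 71 lower. The median log2 fold change of the 9 members was 0.37, beside 0.0062 for all genes.

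In astrocyte-like nuclei Cdkn1a was at 0.796, 1.36, 0, 0.442 and 0.433 CPM in the Cgas+/+ libraries, at 0.516 and 0.753 in Cgas+/- and at 0 and 0.308 in Cgas-/- libraries. The lowest, median and highest values were 0, 3.86 and 11.6 CPM in P301S Cgas+/+, 1.199, 3.72 and 6.04 in P301S Cgas+/-, and 0.560, 3.06 and 11.4 in P301S Cgas-/- libraries. Of 18 P301S libraries, 12 lay above all tau-free libraries, and the others overlapped with them. Means were 4.34 ± 3.68 (289 UMIs) and 0.512 ± 0.423 (16 UMIs), and Cdkn1a rose by a log2 fold change of 3.30 ± 0.62 (9.82-fold, adjusted p = 0.0073). With so few UMIs in tau-free libraries, Cdkn1a passed the low-count filter through P301S libraries.

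Eda2r showed the same contrast in astrocyte-like nuclei. It was at 0.531, 0.679, 0.374, 0 and 0 CPM in Cgas+/+, at 0 and 0.502 in Cgas+/- and at 0.878 and 0.308 in Cgas-/- libraries, 12 UMIs in all. The P301S libraries held 276 UMIs, with lowest, median and highest values of 1.28, 4.54 and 10.7 CPM in P301S Cgas+/+, 0, 4.36 and 7.31 in P301S Cgas+/-, and 0.289, 1.93 and 12.8 in P301S Cgas-/- libraries. A total of 15 of 18 P301S libraries were above every tau-free library, and the log2 fold change was 3.70 ± 0.71 (13.02-fold, adjusted p = 0.0073). Eda2r too passed the low-count filter through P301S libraries.

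Trp53 itself was at 31.3, 46.5, 25.8, 26.97 and 24.9 CPM in astrocyte-like nuclei of Cgas+/+ libraries, at 33.1 and 35.1 in Cgas+/- and at 29.0 and 30.5 in Cgas-/- libraries. In P301S libraries it ran from 28.1 to 70.7 with a median of 42.4. The groups overlapped, with 5 of 18 P301S libraries above all tau-free ones, and Trp53 rose by a log2 fold change of 0.50 ± 0.14 (1.42-fold, adjusted p = 0.0349). This call was lost when any of 11 of the 27 libraries was left out, with adjusted p of 0.0511 to 0.0702: Cgas+/+ replicates 1, 3, 4 and 5, Cgas+/- replicates 1 and 2, Cgas-/- replicates 1 and 2, P301S Cgas+/+ replicate 5, P301S Cgas+/- replicate 3 and P301S Cgas-/- replicate 5. It was also lost within either software version alone, with depth as a covariate (log2 fold change 0.27, adjusted p = 0.448), with the software version as a covariate (0.48, adjusted p = 0.0695) and without the sex covariate (0.42, adjusted p = 0.0792).

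The other members tested in astrocyte-like nuclei were not called by edgeR. Phlda3 was at 0.958 ± 0.426 CPM in tau-free and 2.75 ± 2.02 in P301S libraries (log2 fold change 1.48 ± 0.47, adjusted p = 0.0684), and it was called by DESeq2 (1.52, adjusted p = 0.0324) and by edgeR with doublets kept or without P301S Cgas+/+ replicate 2 or 6 or P301S Cgas+/- replicate 6 (adjusted p of 0.0241 to 0.0482). With 30 UMIs in tau-free and 169 in P301S libraries, Phlda3 too passed the low-count filter through P301S libraries. The calls of Phlda3 are therefore no support separate from the levels. Trp53inp1 was at 30.4 ± 5.50 and 38.9 ± 6.28 CPM (0.26 ± 0.10, adjusted p = 0.141), and Mdm2 at 50.6 ± 5.999 and 56.3 ± 10.5 CPM (0.16 ± 0.08, adjusted p = 0.251). Ccng1, Bax and Atm had an unadjusted p over 0.05. In total 3 of 9 members tested were called, all higher, beside a background of 4.02% of 13772 genes called in either direction and 3.19% called higher. Of these members, Cdkn1a and Eda2r entered the test only through the libraries where they are high, so their calls are no support separate from the levels. DESeq2 called 4, the 3 called by edgeR and Phlda3, beside 623 genes higher and 241 lower. The members' median log2 fold change was 0.32, beside 0.0026 for all genes.

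**Figure D2:**
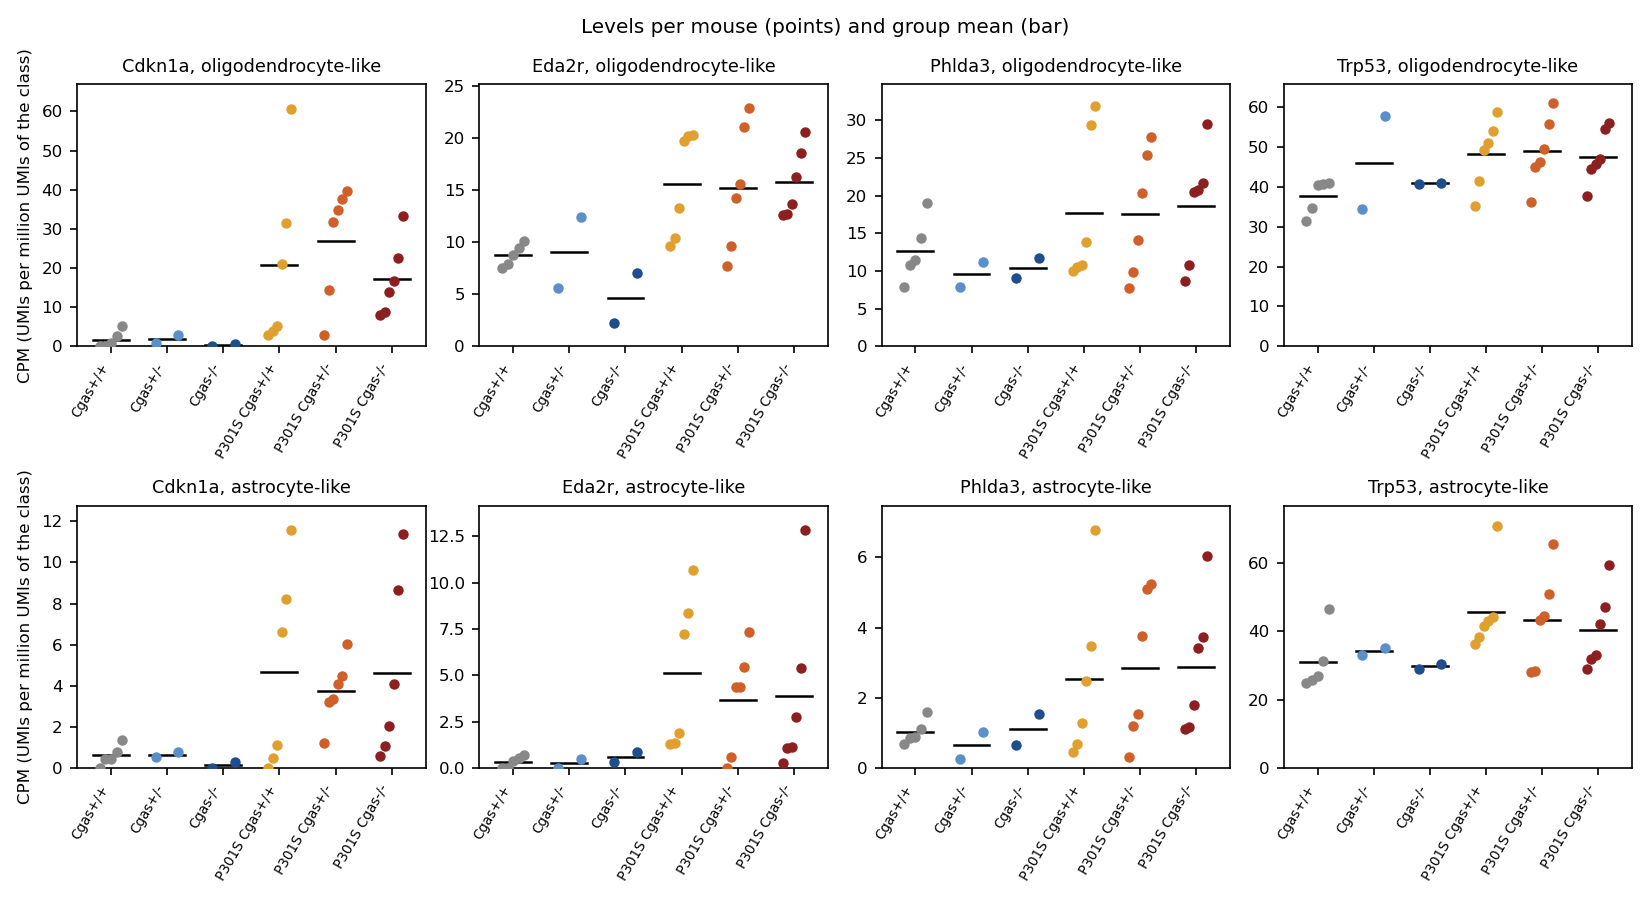
Level of Cdkn1a, Eda2r, Phlda3 and Trp53 in CPM (vertical axis, linear, from 0) in oligodendrocyte-like (top) and astrocyte-like (bottom) nuclei, with 1 point per mouse, the bar at the group mean and the 6 genotype groups along the horizontal axis. Cdkn1a in oligodendrocyte-like nuclei is at most 5.24 CPM in the tau-free mice and reaches 60.7 CPM in P301S mice, and the 3 P301S groups span overlapping ranges.

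Depth moved with the transgene in both classes. In oligodendrocyte-like nuclei the median UMIs per nucleus were 1492 to 1947.5 in tau-free (median 1714) and 1600.5 to 2831 in P301S libraries (median 2020.75). With this depth as a covariate the log2 fold changes there were 3.88 for Cdkn1a, 0.999 for Eda2r and 0.27 for Mdm2, with adjusted p of 0.337, 0.379 and 0.411. The median UMIs per astrocyte-like nucleus were 2600 to 3425 in tau-free libraries (median 3096) and 2737.5 to 5556 in P301S libraries (median 3866.75), and with this depth as a covariate the log2 fold changes were both 3.14 for Cdkn1a and Eda2r with adjusted p of 0.0853, and no member was called. Among the 3.1.0 libraries alone the log2 fold changes were 3.88 for Cdkn1a and 5.90 for Eda2r, with no call. The tau-free side there was Cgas+/+ replicates 3, 4 and 5 only. Among the 3.0.2 libraries alone, all male, both were called. Both calls held when each of the 27 libraries was left out in turn, with log2 fold changes of 3.05 to 3.55 for Cdkn1a and 3.44 to 4.06 for Eda2r.

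Oligodendrocyte RNA in astrocyte-like nuclei was measured through the 11 oligodendrocyte markers, all 11 of which had UMIs there. Their summed level in astrocyte-like nuclei was 0.5259 to 1.41% of that in oligodendrocyte-like nuclei in P301S libraries (median 0.989%) and 0.578 to 1.09% in tau-free libraries (median 0.674%). The mean Eda2r level in astrocyte-like nuclei was 27.3% of that in oligodendrocyte-like nuclei in P301S libraries and 4.60% in tau-free libraries. For Cdkn1a the same ratio was 20.05% and 34.6%, and for Phlda3 15.3% and 8.34%. The part of oligodendrocyte RNA in the astrocyte-like levels was not tested.

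In OPC-like nuclei Eda2r was at 4.29, 1.34, 1.01, 0 and 2.31 CPM in Cgas+/+, at 5.49 and 2.18 in Cgas+/- and at 5.21 and 4.28 in Cgas-/- libraries. The lowest, median and highest values were 5.39, 6.70 and 16.1 CPM in P301S Cgas+/+, 3.96, 7.16 and 18.2 in P301S Cgas+/-, and 5.04, 6.60 and 11.8 in P301S Cgas-/- libraries. In 13 of 18 P301S libraries the level exceeded that of all tau-free ones, and the log2 fold change was 1.35 ± 0.36 with an adjusted p of 0.0587. With 25 UMIs in tau-free and 122 in P301S libraries, Eda2r passed the low-count filter through P301S libraries. It did not pass in the fits of the 4 larger groups, so its test here is no support separate from the levels. Of 7 members tested in this class edgeR called 0, beside a background of 0.699% of 9581 genes called (0.564% higher). DESeq2 called 1, beside 87 genes higher and 22 lower. At an unadjusted p under 0.05 there was 1 member, beside 937 of the 9581 genes.

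Neuron-like and microglia-like nuclei gave no call. In excitatory neuron-like nuclei 8 members were tested and 0 were called by either tool. The background was 7 of 17657 genes (0.0396%) in edgeR, and 45 genes higher and 19 lower in DESeq2. Beside 1501 of the 17657 genes at an unadjusted p under 0.05 there were 2 members. These were Phlda3, at 0.160 ± 0.139 CPM in tau-free and 0.415 ± 0.177 in P301S libraries (log2 fold change 1.12 ± 0.38, adjusted p = 0.404), and Cdkn1a, at 0.703 ± 0.514 and 1.71 ± 1.42 CPM (0.99 ± 0.47, adjusted p = 0.577). With 42 UMIs in tau-free and 187 in P301S libraries, Phlda3 passed the low-count filter mainly through P301S libraries. Its test here is no support separate from the levels. The Cdkn1a difference went to −0.81 among the 3.1.0 libraries alone, where the tau-free libraries were Cgas+/+ replicates 3, 4 and 5 only. In inhibitory neuron-like nuclei 6 members were tested, 0 were called and 0 had an unadjusted p under 0.05, with log2 fold changes from −0.23 to 0.07 and a background of 0.0150% of 13332 genes (0.00750% higher). DESeq2 called 0 there as well, beside 1 gene higher and 2 lower.

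The subclasses within excitatory neuron-like nuclei differed between libraries. Cortical-like nuclei were 2.40 to 48.7% of the class in tau-free (median 23.9%), 1.69 to 49.5% in P301S Cgas+/+ (median 18.6%), 31.4 to 49.1% in P301S Cgas+/- (median 39.95%) and 27.7 to 62.1% in P301S Cgas-/- libraries (median 36.98%), and 3 of the 6 P301S Cgas+/+ libraries had only 43, 65 and 158 of them. Cdkn1a was at 1.65 ± 1.15 CPM in cortical-like and 0.384 ± 0.531 in dentate granule-like nuclei of tau-free libraries, and at 2.85 ± 2.22 and 1.65 ± 1.66 in those of P301S libraries. Among the nuclei named as hippocampal alone (dentate granule-like and CA1-like to CA3-like) the log2 fold changes between P301S and tau-free libraries were 1.64 ± 0.55 for Phlda3 and 1.19 ± 0.60 for Cdkn1a, with adjusted p of 0.452 and 0.723 in edgeR. More of these RNAs per nucleus and more nuclei of a subclass cannot be told apart in the sums over the whole class.

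Microglia-like nuclei differed most between P301S and tau-free libraries in all genes, with 1349 of 9700 called (13.9%) and 815 of them higher (8.40% of those tested). Among the 6 members tested there 0 were called by edgeR or DESeq2 and 0 had an unadjusted p under 0.05, with log2 fold changes from −0.07 to 0.27. Of all genes DESeq2 called 853 higher and 579 lower, and 2666 had an unadjusted p under 0.05 in edgeR. Trp53 was at 49.5 ± 14.3 CPM in tau-free and 54.9 ± 9.35 in P301S libraries, and Mdm2 at 73.4 ± 17.1 and 70.1 ± 12.04 CPM. Cdkn1a, Eda2r and Phlda3 did not pass the low-count filter in this class. Cdkn1a was at 3.31 ± 2.89 CPM (15 UMIs) in tau-free and 4.79 ± 3.55 (80 UMIs) in P301S libraries.

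**Figure D3:**
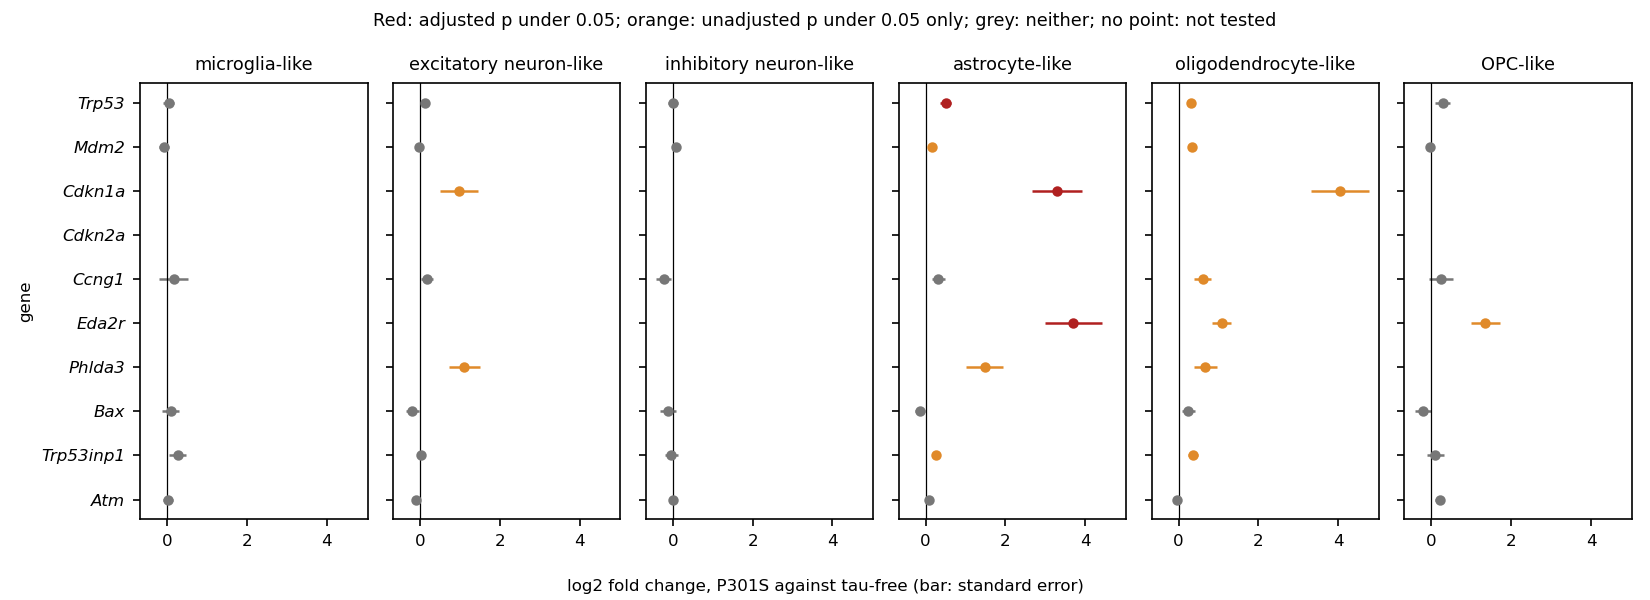
Log2 fold change of each member (rows) between 18 P301S and 9 tau-free libraries in 6 nuclei classes (panels), with the standard error as the bar. Red points passed an adjusted p of 0.05 in edgeR, orange points an unadjusted p of 0.05 only, grey points neither, and members without a point were not tested; the 3 red points are Trp53, Cdkn1a and Eda2r in astrocyte-like nuclei.

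The size of the difference was then compared between classes, with 4 comparisons chosen after the levels had been seen, so their p-values are no independent support. The difference of log2(CPM + 1) between 2 classes was taken within each mouse, and the transgene labels were permuted over the 27 mice in an exact two-sided permutation test of 4686825 arrangements. The P301S difference in Cdkn1a was larger in oligodendrocyte-like than in excitatory neuron-like nuclei by 2.48 (p = 3.3e-05, Benjamini-Hochberg adjusted p = 7.8e-05, with 18 of 18 P301S mice above the tau-free median) and larger in astrocyte-like nuclei by 0.92 (p = 0.0458, adjusted p = 0.0458, 12 of 18 mice, exact permutation test). For Eda2r it was larger by 0.90 in oligodendrocyte-like nuclei (exact permutation p = 3.9e-05, adjusted p = 7.8e-05, 18 of 18 mice) and by 1.56 in astrocyte-like nuclei (exact permutation p = 0.00052, adjusted p = 0.00070, 16 of 18 mice). Eda2r did not pass the low-count filter in excitatory neuron-like nuclei, where it was at 0.209 ± 0.0837 CPM in tau-free and 0.231 ± 0.113 in P301S libraries, and differences at such levels are small on this scale by construction. The excitatory neuron-like class also differed in its subclasses, as given above.

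P301S mice with much Cdkn1a in oligodendrocyte-like nuclei also had much in astrocyte-like nuclei. Across the 18 P301S mice the log2(CPM + 1) levels in the 2 classes correlated with a Pearson r of 0.85 (permutation p = 3e-05, adjusted p = 6e-05) and a Spearman rho of 0.76 (permutation p = 0.0004, adjusted p = 0.0008). Without the 2 mice farthest from the median r was 0.81, and it was 0.95 within the 6 libraries of version 3.0.2 and 0.80 within the 12 of version 3.1.0. A total of 4 such relations were computed. For Mdm2 r was 0.89 and rho 0.87 (permutation p = 2e-05 for each, adjusted p = 6e-05 and 8e-05), with r of 0.84 without the 2 farthest mice and 0.94 and 0.825 within versions. For Phlda3 r was 0.75 and rho 0.70 (permutation p = 0.00078 and 0.0019, adjusted p = 0.00078 and 0.0025), with r of 0.83 without the 2 farthest mice and 0.94 and 0.67 within versions. For Eda2r r was 0.75 and rho 0.65 (permutation p = 0.00056 and 0.00465, adjusted p = 0.00075 and 0.00465), with r of 0.75 without the 2 farthest mice and 0.69 and 0.74 within versions. Both levels of a mouse come from 1 library, and the parts of shared free RNA and of depth in these relations were not tested. No such r was computed for other genes, so the values do not show a relation particular to these 4.

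**Figure D4:**
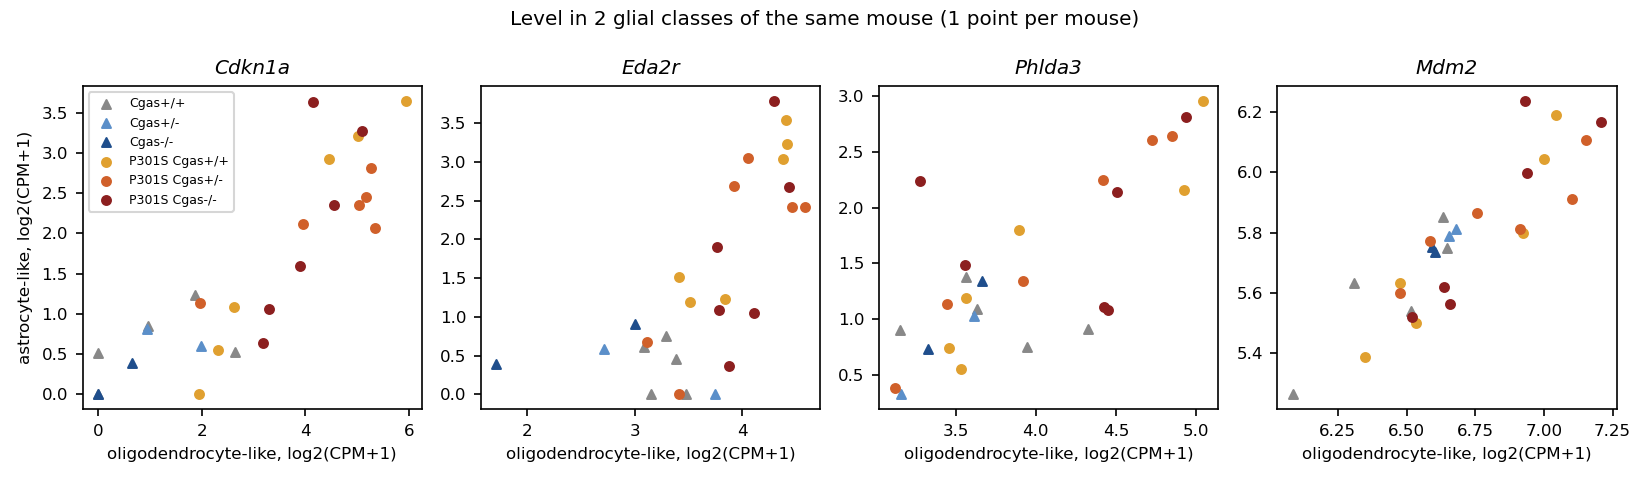
Level in oligodendrocyte-like nuclei (horizontal) against astrocyte-like nuclei (vertical) of the same mouse, both in log2(CPM + 1), for Cdkn1a, Eda2r, Phlda3 and Mdm2. Circles are P301S and triangles tau-free mice; the P301S mice run from the tau-free range upward together in both classes, with a Pearson r of 0.85 for Cdkn1a.

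The members were not spread evenly within oligodendrocyte-like nuclei. These nuclei fell into clusters made without the 10 genes, and cluster 0 (20187 nuclei, led by Prr5l, C030029H02Rik, A230001M10Rik, Mobp and Opalin) stood apart from clusters 3 and 5. The comparison is a description, since the same nuclei made the clusters. In P301S libraries the mean Cdkn1a level was 39.4 CPM in cluster 0, 8.04 in cluster 3 and 4.10 in cluster 5, and cluster 0 was the higher in 18 of 18 libraries against each. In tau-free libraries the same means were 2.93, 0.897 and 0.584 CPM. A further cluster, 49, held 138 nuclei of P301S libraries, over 50 of them in 1 library only, with pooled Cdkn1a at 38.8 CPM (11 UMIs). Mdm2 was at 141, 83.3 and 88.0 CPM in P301S libraries and at 96.6, 90.6 and 87.9 in tau-free libraries.

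Phlda3 and Eda2r differed between the clusters in P301S libraries but not in the same order in tau-free libraries. In P301S libraries Phlda3 was at 25.9 CPM in cluster 0 against 12.1 and 10.6 in clusters 3 and 5, and Eda2r at 21.5 against 10.2 and 10.6, and in tau-free libraries Phlda3 was at 10.97, 12.4 and 10.9 CPM and Eda2r at 7.26, 6.94 and 10.7 in clusters 0, 3 and 5. Atm, which lies upstream of p53, was at 51.8, 49.9 and 56.2 CPM in the 3 clusters of P301S libraries, and cluster 0 was above cluster 3 in 10 of 18 libraries and above cluster 5 in 7 of 18. Cluster 0 made up 46.9% ± 7.45 (SD, n = 18) of oligodendrocyte-like nuclei in P301S and 37.5% ± 6.37 (n = 9) in tau-free libraries.

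In astrocyte-like nuclei of P301S libraries Cdkn1a, Eda2r, Phlda3 and Trp53 were among the members with higher levels in cluster 10 than in the larger cluster 2. Cluster 10 was led by Gfap, Aqp4, Acsbg1, Gli3 and Thbs4. Pooled over P301S libraries, Cdkn1a was at 9.70 CPM in cluster 10 and 1.60 in cluster 2, Eda2r at 10.7 and 0.629, and Phlda3 at 5.61 and 0.970. Cluster 10 was the higher in 13, 14 and 13 of 18 libraries for these genes, in 18 of 18 for Trp53, 17 of 18 for Mdm2 and 13 of 18 for Ccng1. Bax (19.4 and 16.8 CPM), Atm (52.6 and 50.3) and Trp53inp1 (41.5 and 37.5) were closer in clusters 10 and 2. For these 3 genes cluster 10 was the higher in 11, 11 and 13 of 18 libraries. The small cluster 34 (557 nuclei in P301S libraries) had Cdkn1a at 4.22 and Eda2r at 7.04 CPM, from 3 and 5 UMIs. In tau-free libraries Cdkn1a was at 0.369 and 0.453 CPM in the same clusters, from 1 and 13 UMIs. Cluster 10 held 33.7% ± 22.2 of the astrocyte-like nuclei of P301S libraries and 9.31% ± 3.46 of those of tau-free libraries.

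The members were also found together in the same nuclei. In P301S libraries 1128 oligodendrocyte-like nuclei had a Cdkn1a UMI and 32993 had none, with medians of 2040 and 1990 UMIs per nucleus and summed oligodendrocyte markers at 17737 and 23327 CPM. The nuclei with Cdkn1a held 92.5 CPM of Eda2r against 13.1 in the others (a ratio of 7.07, higher in 14 of 18 libraries), 62.5 against 9.71 of Ccng1 (6.44, 16 of 18) and 93.7 against 15.5 of Phlda3 (6.07, 14 of 18). The ratios were 4.11 for Trp53inp1 (15 of 18), 3.30 for Mdm2 (16 of 18), 2.96 for Bax (13 of 18), 1.75 for Trp53 (13 of 18) and 1.15 for Atm (12 of 18). Cdkn2a had 2 and 11 UMIs, a ratio of 5.18, and was higher in 2 and lower in 7 libraries. Trp53 and Atm had the smallest ratios of the 9 genes.

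In astrocyte-like nuclei 185 had a Cdkn1a UMI and 15834 of the same 17 libraries had none. Eda2r was at 133 CPM in the former and 2.57 in the latter, a ratio of 51.7, from 121 and 153 UMIs. Phlda3 had a ratio of 17.96, Mdm2 of 6.07, Ccng1 of 5.19, Trp53inp1 of 4.56, Trp53 of 2.37, Bax of 2.07 and Atm of 1.31. Cdkn2a had 1 and 4 UMIs. Library by library the nuclei with Cdkn1a were higher for Eda2r in 11 and lower in 5 of 17. They were higher for Mdm2 in 14, Atm in 13, Trp53inp1 and Bax in 12 each, Trp53 in 10, and Phlda3 and Ccng1 in 9 each, and lower in the rest. The nuclei with Cdkn1a were deeper, with a median of 4792 against 3563 UMIs. The summed oligodendrocyte markers were at 298 CPM in the astrocyte-like nuclei with Cdkn1a and 220.5 in those without, against 23327 in oligodendrocyte-like nuclei without Cdkn1a, and the summed astrocyte markers were at 20067 and 29568. The part of free RNA or doublets in these ratios was not tested.

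**Figure D5:**
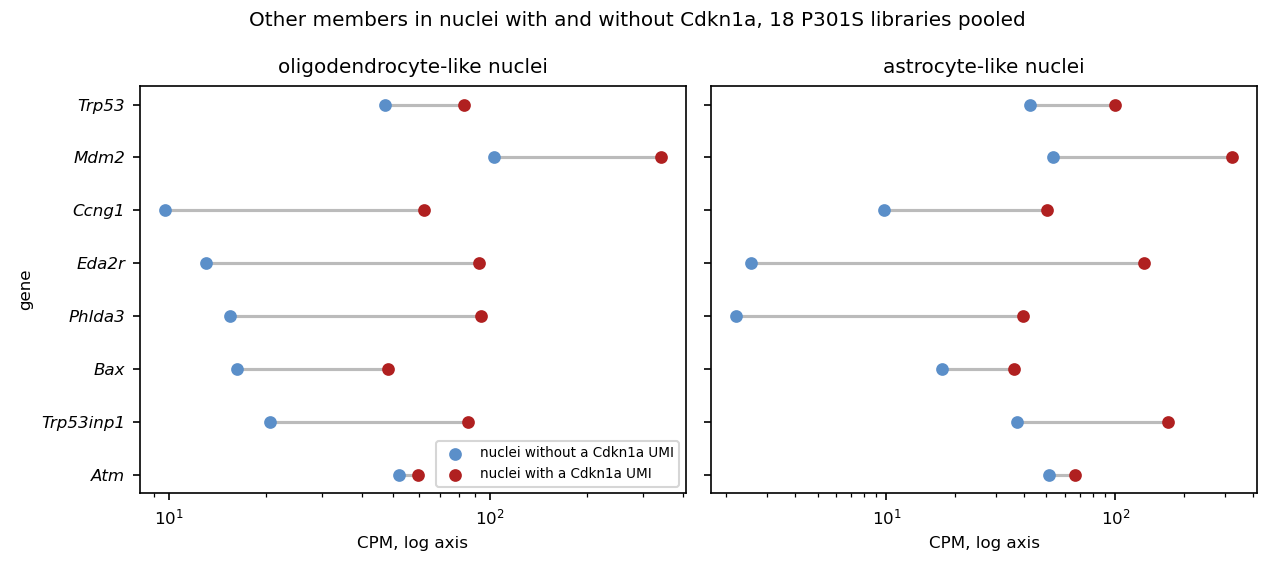
CPM (horizontal, log axis) of the other members in nuclei with (red) and without (blue) a Cdkn1a UMI, pooled over the P301S libraries, in oligodendrocyte-like (left) and astrocyte-like (right) nuclei. Eda2r shows ratios of 7.07 and 51.7, and Atm ratios of 1.15 and 1.31.

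Over all 27 mice the genes whose level in oligodendrocyte-like nuclei was most like that of Cdkn1a were Sulf2 (r = 0.85), Rnh1, Lpin1, Inpp5a and 4930488L21Rik, out of 8287 genes ranked by Pearson's r of log2(CPM + 1). Mdm2 ranked 13, Ccng1 26, Eda2r 33 and Phlda3 61 on that list, and Atm 6164. These ranks are a description over libraries that share genotype and depth.

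The second question was whether the Cgas label changes these genes in P301S mice. No member tested was called between P301S Cgas-/- and P301S Cgas+/+ libraries in any of the 6 classes, by edgeR or by DESeq2. For Phlda3 in excitatory neuron-like nuclei DESeq2 gave no adjusted p, so it neither called nor cleared that gene. The background was 0.00% in edgeR in all 6. DESeq2 called 61 genes higher and 35 lower in excitatory, 5 and 5 in inhibitory neuron-like nuclei, and 0 elsewhere. Only 5 members were tested in microglia-like and in OPC-like nuclei, and 6 in inhibitory neuron-like nuclei. Cdkn1a, Cdkn2a, Eda2r and Phlda3 were untested in each of these classes, and Ccng1 in microglia-like and OPC-like nuclei. In astrocyte-like nuclei the members' log2 fold changes ran from −0.56 to 0.34 and in oligodendrocyte-like nuclei from −0.32 to 0.16. In excitatory neuron-like nuclei the lowest was −0.06, 7 of 8 were above 0 and the median was 0.22, beside 0.01 for all genes. The highest was that of Cdkn1a, at 0.959 ± 1.051 CPM in P301S Cgas+/+ and 2.19 ± 2.02 in P301S Cgas-/- libraries (2.07-fold, with an SE of 0.57 on the log2 scale, adjusted p = 0.439). The P301S Cgas+/+ libraries had the smaller share of cortical-like nuclei, and Cdkn1a was at 2.31 ± 0.827 and 3.37 ± 3.64 CPM within cortical-like and 0.705 ± 1.19 and 2.35 ± 2.21 within dentate granule-like nuclei of these groups. At an unadjusted p under 0.05 there were 2 members, both in excitatory neuron-like nuclei, beside 2231 of 16778 genes there. They were Ccng1 with a log2 fold change of 0.49 ± 0.15 (adjusted p = 0.221) and Phlda3 with 0.89 ± 0.39 (adjusted p = 0.322). Ccng1 was the higher in cortical-like nuclei (6.68 ± 2.20 CPM in P301S Cgas+/+ libraries, against 4.16 ± 0.990 in dentate granule-like nuclei), and among the hippocampal subclasses alone its log2 fold change was 0.44 ± 0.16 (adjusted p = 0.929). Phlda3 was at 0.856 ± 1.02 and 0.628 ± 0.470 CPM (10 and 39 UMIs) within cortical-like nuclei of P301S Cgas+/+ and P301S Cgas-/- libraries. It was at 0.281 ± 0.150 and 0.468 ± 0.314 (13 UMIs each) within dentate granule-like and 0.202 ± 0.292 and 0.221 ± 0.310 within CA1-like nuclei. Within the unnamed subclass it was at 0.351 ± 0.474 and 1.31 ± 1.44, and within CA3-like nuclei at 0.109 ± 0.244 and 0. Means of Cdkn1a in oligodendrocyte-like nuclei were 20.9 ± 22.6, 26.8 ± 14.8 and 17.2 ± 9.51 CPM (SD, n = 6 each) in P301S Cgas+/+, P301S Cgas+/- and P301S Cgas-/- libraries, which all lay above the tau-free mean.

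Between P301S Cgas+/- and P301S Cgas+/+ libraries the same members were tested, and again 0 were called in the 6 classes by edgeR or DESeq2. The background in edgeR was 1 of 12676 genes in inhibitory neuron-like nuclei (0.00789%) and 0 in the other 5. DESeq2 called 72 genes higher and 30 lower in excitatory, and 4 and 3 in inhibitory neuron-like nuclei. At an unadjusted p under 0.05 there were 2: Ccng1 in excitatory neuron-like nuclei (0.35 ± 0.15, adjusted p = 0.367, and 0.37 ± 0.16, adjusted p = 0.781, among the hippocampal subclasses alone) and Trp53inp1 in microglia-like nuclei (−0.60 ± 0.23, adjusted p = 1.0). These 2 members stood beside 1947 of 16778 genes at that threshold in excitatory neuron-like and 207 of 9099 in microglia-like nuclei. The wide spread of the P301S groups limits what the comparisons of Cgas labels could show for Cdkn1a and Eda2r.

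The comparison of P301S Cgas+/+ with Cgas+/+ libraries, which shares its libraries with the others, had 6 mice against 5 and called no member. In oligodendrocyte-like nuclei 5 of 9 members tested had an unadjusted p under 0.05, all higher, beside 852 of 12381 genes. They were led by Cdkn1a (3.65 ± 1.02, adjusted p = 0.670). In this comparison Cdkn1a passed the low-count filter through P301S libraries, so its test is no support separate from the levels. The share of all genes called by edgeR was 0.00808%. DESeq2 called 1 of the 9, beside 10 genes higher and 3 lower. In astrocyte-like nuclei 3 of 9 had an unadjusted p under 0.05, beside 1467 of 12987 genes. They were Cdkn1a (3.02 ± 0.89, adjusted p = 0.242), Eda2r (4.16 ± 1.09, adjusted p = 0.236) and Trp53 (0.54 ± 0.21, adjusted p = 0.330). Here too Cdkn1a and Eda2r passed the low-count filter through P301S libraries. The share of all genes called by edgeR was 0.00770%. DESeq2 called 2 of the 9, beside 142 genes higher and 10 lower. In microglia-like nuclei 1 of 5 members tested, Trp53inp1, reached an unadjusted p under 0.05 (0.63 ± 0.27, adjusted p = 0.251), beside 1434 of 9099 genes. The share of all genes called by edgeR was 0.0440%. The background was 0.0238% in excitatory neuron-like, 0.00789% in inhibitory neuron-like and 0.0116% in OPC-like nuclei, and in these also no member was called.

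Other genes of the pathway were taken from 5 lists and tested in the comparison of all P301S with all tau-free libraries. The lists were chosen with earlier results of these data known, so their shares beside all genes are a description. Of 60 other p53 target genes, 46 were tested in astrocyte-like nuclei, and 3 were called, all higher: Pvt1, a long non-coding RNA beside Myc (log2 fold change 1.48 ± 0.29, adjusted p = 0.0079), Fas, a death receptor (2.50 ± 0.54, adjusted p = 0.012), and Ephx1, an epoxide hydrolase (1.35 ± 0.32, adjusted p = 0.0198). The median of the 46 was 0.21, beside 0.0026 for all genes, of which 4.02% were called (3.19% higher). In oligodendrocyte-like nuclei 45 were tested and 0 were called. Of the 45, 13 had an unadjusted p under 0.05, beside 1784 of 12992 genes, and the median was 0.23, beside 0.0062. The 4 with the smallest p there were Pvt1 (0.82 ± 0.19), Steap3 (3.86 ± 0.95), Gdf15 (3.94 ± 1.03) and Gadd45b (2.20 ± 0.60), with adjusted p of 0.0806 to 0.105. In OPC-like nuclei 1 of 25 was called, Pvt1 (1.36 ± 0.30, adjusted p = 0.0287), beside 0.699% of all genes.

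Microglia-like nuclei had calls on this list in both directions, and none of the 6 members tested there was called. Cdkn1a, Cdkn2a, Eda2r and Phlda3 were not tested in this class. Of 31 tested, 6 were higher (Pvt1, Ass1, Ephx1, Apaf1, Dram2 and Tigar) and 2 lower (Sesn1 and Trp53i11), beside 13.9% of all genes called and 8.40% called higher in this class, and the median was 0.03, beside −0.02 for all genes. In excitatory and inhibitory neuron-like nuclei 0 of 54 and 0 of 34 were called in edgeR. At an unadjusted p under 0.05 there were 6 and 1, beside 1501 of 17657 and 557 of 13332 genes.

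Senescence-associated secretory genes, which encode cytokines, chemokines and matrix proteins released by senescent cells and also by activated glia, were called mainly in microglia-like and astrocyte-like nuclei. In microglia-like nuclei 15 of 23 tested were higher, among them Ccl4, Axl, Csf1 and Spp1, and 1 was lower (Tgfb1), beside 8.40% of all genes higher and 13.9% called, with a median of 1.62. In astrocyte-like nuclei 9 of 22 were higher, Cxcl10, Csf1, Icam1, Igfbp5, Igfbp7, Hgf, Ccl2, Mmp2 and Lgals3, and Mmp14 was lower, beside 3.19% of all genes higher and 4.02% called, with a median of 0.54. In oligodendrocyte-like nuclei 0 of 12 were called, 5 had an unadjusted p under 0.05 (beside 1784 of 12992 genes), and the median was −0.25. In OPC-like nuclei 1 of 11 was called, the colony-stimulating factor Csf1 (1.09 ± 0.26, adjusted p = 0.0284), beside 0.699% of all genes. In neurons none of 22 and 12 was called.

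Genes upstream of p53 and those of cell-cycle arrest gave few calls, and in microglia-like nuclei their shares are to be read beside the 13.9% of all genes called there. Upstream of p53, 1 of 23 was called in microglia-like nuclei (Hipk2, a p53 kinase, higher), a share below that of all genes, and none of 23 in oligodendrocyte-like nuclei or of 25 in astrocyte-like nuclei. Of the cell-cycle arrest and senescence genes 2 of 13 were called in microglia-like nuclei, with Glb1, the lysosomal beta-galactosidase, higher and Ets1 lower, a share close to that of all genes, while none of 17 was called in oligodendrocyte-like nuclei and none of 22 in astrocyte-like nuclei. In the BCL2 family and caspases 3 were called higher and 1 lower of 18 in microglia-like nuclei, 2 of 19 were called higher in astrocyte-like nuclei (beside 3.19% of all genes), and 0 of 18 were called in oligodendrocyte-like nuclei.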

How the data were processed

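Hippocampal nuclei of 27 mice were processed with 10x Chromium 3' v3 kits, 1 library per mouse. The authors deposited a matrix of unnormalized UMI counts (genes by barcodes) for each library, made with Cell Ranger (version 3.1.0 per the submitters' processing notes) by counting pre-mRNA reads on mm10. Barcodes were retained when they had 200 to 4000 genes and no more than 5% of UMIs from mitochondrial genes (221281 of 241938), and 16429 doublets were removed by Scrublet score (scanpy 1.11.5) at 0.8% per 1000 barcodes. Nuclei were clustered (python-igraph 0.11.9, 2000 genes without the members or lists, 30 components, Leiden resolution 1), and clusters were named from at least 4 markers. This minimum was raised after cluster names and markers had been seen, before any comparison. Of 56 clusters, 10 stayed unnamed, with 14635 nuclei. UMI counts were summed per library and class and tested with edgeR 4.0.16 (quasi-likelihood, TMM, filterByExpr, sex as covariate, Benjamini-Hochberg over all genes, threshold 0.05); DESeq2 1.42.0 was an alternative.

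The comparisons of Cgas labels and of P301S Cgas+/+ with Cgas+/+ were fitted on the 23 mice of the 4 larger groups, and the comparison of all P301S with all tau-free libraries on all 27 with the Cgas label as a further term. On simulated data with known changes, 83.5% of genes changed by 1 on the log2 scale and 99.0% of those changed by 2 were recovered in astrocyte-like nuclei (13520 genes), and 81.4% and 97.9% in oligodendrocyte-like nuclei (12758 genes). The changed genes were drawn at random over all levels, and the transgene was the only effect simulated. These shares therefore do not give the sensitivity for sparse members with a wide spread between mice. Log2 fold changes with their SE are named where the unadjusted p was under 0.05, and from each list the called genes or up to 4 with the smallest p. Other normalization, filters, covariates, nuclei and single-library omissions were tried. The members and lists were chosen with earlier results of these data known. Called genes of the BCL2 family and caspase list are counted, and their names are not reported here.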

Additional observations from a re-analysis of the deposited data

Results flagged for a closer look

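The largest value of Cdkn1a in excitatory neuron-like nuclei stood apart from the rest of its group in all 3 P301S groups: P301S Cgas+/+ replicate 1 was at 3.03 CPM with the next at 0.982, P301S Cgas+/- replicate 4 at 3.49 with the next at 2.14, and P301S Cgas-/- replicate 3 at 6.14 with the next at 2.29. Trp53 in astrocyte-like nuclei of P301S Cgas+/+ replicate 3 was at 70.7 CPM with the next at 44.2. This library held 362 astrocyte-like nuclei and had the lowest median depth of the 27, with 4426 of its 8724 nuclei in unnamed clusters. These 4 values were found among 72 groups tested over 18 gene and class pairs, and chance flags about 1 in 20 groups.

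The difference between P301S and tau-free mice was larger in glia than in excitatory neuron-like nuclei on the log2(CPM + 1) scale, by 2.48 for Cdkn1a and 0.90 for Eda2r in oligodendrocyte-like nuclei and by 0.92 for Cdkn1a and 1.56 for Eda2r in astrocyte-like nuclei (Benjamini-Hochberg adjusted p of 7.8e-05, 7.8e-05, 0.0458 and 0.00070 in exact permutation tests over mice). These 4 comparisons were chosen after the levels were seen, so the p-values are no independent support, and Eda2r did not pass the low-count filter in excitatory neuron-like nuclei.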

How the results depend on the processing

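Counts of members called in the 24 comparisons kept within 1.5 times of the value given in 250 of 262 other settings and in 567 of 576 omissions of 1 library, but 23 of the 24 counts were 0 to begin with. The count of 3 in astrocyte-like nuclei was 3 in 16 of its 37 settings and omissions, 2 in 14, 4 in 5 and 0 in 2. Further, 987 of 1037 settings of the 33 named fold changes kept their direction and their side of the threshold. Of the counts that moved, DESeq2 called 2 members in astrocyte-like and 1 in oligodendrocyte-like nuclei between P301S Cgas+/+ and Cgas+/+ libraries, and 1 was called in OPC-like nuclei without the low-count filter. Over all P301S libraries, astrocyte-like nuclei had 0 members called with depth as a covariate and 0 among the 3.1.0 libraries alone, in place of 3. Oligodendrocyte-like nuclei had 3 with DESeq2 and 2 without the sex covariate, and 0 to 2 with 1 library left out: 2 without P301S Cgas+/+ replicate 2 or 4, and 1 without P301S Cgas+/+ replicate 6, P301S Cgas+/- replicate 2 or 5, or P301S Cgas-/- replicate 1. OPC-like nuclei had 1 (Eda2r) with DESeq2, with doublets kept, without the low-count filter, without the sex covariate and with barcodes over 4000 genes kept, and 0 to 1 with 1 library left out (1 without P301S Cgas+/- replicate 1, 4 or 6). The Cdkn1a fold change in excitatory neuron-like nuclei turned to −0.81 among the 3.1.0 libraries alone, against 0.99. With a pseudocount of 0.25 the 4 differences between classes were 3.06 and 1.29 for Cdkn1a in oligodendrocyte-like and astrocyte-like nuclei and 0.95 and 2.37 for Eda2r, with adjusted p under 0.05. The cause of these shifts was not tested. The fits within a software version and the differences between classes were chosen after seeing the data.

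No paired analysis was possible because the labels give each mouse a number of its own and no replicate numbers shared between groups. The replicate numbers here only name libraries. Counts of Cdkn2a, and of Cdkn1a, Eda2r and Phlda3 in inhibitory neuron-like and microglia-like nuclei, were too few at this depth for firm statements, the tau-free Cgas+/- and Cgas-/- groups had 2 male libraries each, and the 12 libraries of version 3.0.2 were all male.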

Other observations

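Over the P301S libraries the mean levels of Cdkn1a and Eda2r in astrocyte-like and oligodendrocyte-like nuclei were higher in males than in females. In astrocyte-like nuclei Cdkn1a was at 5.64 ± 4.10 CPM (SD, n = 9) in P301S males and 3.04 ± 2.86 in P301S females (n = 9), and Eda2r at 5.52 ± 3.61 and 2.95 ± 3.72. In oligodendrocyte-like nuclei Cdkn1a was at 25.1 ± 17.9 and 18.2 ± 14.1 CPM and Eda2r at 16.2 ± 4.09 and 14.8 ± 5.28. The ranges overlapped, the 6 P301S libraries of version 3.0.2 were all male, and the difference was not tested.

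Calls among other p53 targets and among the secretory genes were both found in astrocyte-like, microglia-like and OPC-like nuclei. Among the lists tested, the secretory genes had their largest median log2 fold change in microglia-like nuclei (1.62), where none of the 6 members tested was called. Their median was −0.25 in oligodendrocyte-like nuclei, where Cdkn1a had a 16.4-fold difference that missed the adjusted threshold in edgeR. Microglia-like nuclei of P301S libraries fell into a cluster shared with tau-free libraries and a second cluster of 3133 nuclei, and Cdkn1a was at 3.46 and 7.27 CPM in these, from 29 and 51 UMIs, with the second cluster the higher in 6 and the lower in 5 of 11 libraries.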
